A study of Mus musculus with 12 samples.

Results

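The genes described here are 9 mouse inhibitors of extracellular proteolysis: the tissue inhibitors of metalloproteinases Timp2, Timp3 and Timp4, the membrane-anchored inhibitor Reck, and the serpins Serpine2, Serpina3n, Serpina3g, Serpinb2 and Serpinf1. They were found by symbol among the 57010 Ensembl gene IDs of the count tables, on autosomes only, because every ID of the X chromosome was listed at 0. RNA was measured by sequencing of poly(A)-captured mRNA in 12 libraries of primary mouse chondrocytes, the cells that make and maintain cartilage matrix. All 12 libraries carry the genotype label "Wild type". The treatment label is Control in 4 libraries, WT in 4 and "SIRT5F101L mutant" in 4, written SIRT5F101L below. The submitters state that cells were transfected with a wild-type or a SIRT5F101L mutant plasmid. WT was therefore read as the wild-type SIRT5 plasmid, SIRT5 being a mitochondrial enzyme that removes acyl groups from lysines. What the control cells received, the promoter of the plasmids, the share of cells transfected, the time after transfection and the age of the mice are not given in the sources used here. No label says whether the 4 libraries of a group came from separate cultures, so p-values measure the spread between these libraries, which may be technical.

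Cartilage matrix turns over through metalloproteinases, which cut collagens and aggrecan, and through serine proteases such as urokinase and plasmin, which cut matrix proteins and activate metalloproteinase precursors. TIMPs are small secreted proteins that block the active site of metalloproteinases, and RECK does the same at the cell surface, where it also serves as a partner of ADGRA2 in WNT7 signalling. Most serpins trap a serine protease by offering a reactive loop that, once cut, locks the protease in an inactive complex, which receptors such as LRP1 then clear. Some serpins act inside the cell, and some, PEDF (Serpinf1) among them, inhibit no protease.

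The promoters of the 4 members with the largest changes among the 6 tested are printed first, because 2 of these genes rose and 2 fell in both plasmid groups. Each sequence is the 250 bases before the RefSeq transcription start (GRCm38.p6), read 5′ to 3′ on the gene's strand. Capitals mark a match, on either strand, to the TATA element TATAAA, the GC box motif GGGCGG, the AP-1 element TGANTCA, the STAT element TTCNNNGAA, the C/EBP element TTGCNNAA, the SOX element ACAAAG or the NF-kB consensus. The 2 genes that rose were Serpina3n (chr12:104406458-104406707, plus strand) and Serpinb2 (chr1:107511173-107511422, plus strand, the first of 2 windows listed). The 2 that fell were Reck (chr4:43875280-43875529, plus strand) and Serpinf1 (chr11:75422624-75422873, minus strand).
Serpina3n: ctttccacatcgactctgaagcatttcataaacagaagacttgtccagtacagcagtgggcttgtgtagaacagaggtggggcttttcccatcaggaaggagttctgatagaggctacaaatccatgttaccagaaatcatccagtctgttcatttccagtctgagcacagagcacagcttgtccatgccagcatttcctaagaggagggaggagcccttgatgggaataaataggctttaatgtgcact
Serpinb2: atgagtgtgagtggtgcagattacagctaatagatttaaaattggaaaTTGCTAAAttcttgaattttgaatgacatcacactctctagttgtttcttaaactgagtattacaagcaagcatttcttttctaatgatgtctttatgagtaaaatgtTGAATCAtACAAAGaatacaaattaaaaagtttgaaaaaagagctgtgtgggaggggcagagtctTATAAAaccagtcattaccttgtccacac
Reck: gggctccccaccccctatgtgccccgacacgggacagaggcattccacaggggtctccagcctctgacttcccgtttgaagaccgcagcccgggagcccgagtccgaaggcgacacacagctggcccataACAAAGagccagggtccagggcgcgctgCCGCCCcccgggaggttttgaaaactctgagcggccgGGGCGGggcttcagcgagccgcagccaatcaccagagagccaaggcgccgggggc
Serpinf1: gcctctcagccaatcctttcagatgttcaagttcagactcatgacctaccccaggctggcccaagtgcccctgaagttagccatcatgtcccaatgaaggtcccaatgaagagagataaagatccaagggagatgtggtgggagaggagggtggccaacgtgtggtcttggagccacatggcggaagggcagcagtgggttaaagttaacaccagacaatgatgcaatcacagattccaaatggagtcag

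The Serpinb2 window had a GC content of 32.4% and held a TATA match 29 to 24 bases before the start, an AP-1 match at 94 to 88, a SOX match at 86 to 81 and a C/EBP match at 202 to 195. The Reck window was rich in G and C (68.4%) and held GC boxes at 92 to 87 and 55 to 50 bases before the start, with a SOX match at 120 to 115. None of the 7 motifs was found in the Serpina3n window (46.4% GC) or the Serpinf1 window (51.6% GC). Over all 32851 mouse windows of the same length the median GC content was 52.4%. The TATA letters were found in 12.4% of these windows, the GC box in 32.7%, AP-1 in 6.75%, STAT in 7.02%, C/EBP in 9.56%, NF-kB in 7.25% and SOX in 16.5%. Of the 9 members, 4 had a GC box match (Timp2, Timp3, Reck and Serpine2) and 3 a SOX match (Reck, Serpine2 and Serpinb2). Serpinb2 alone among the members had TATA, AP-1 and C/EBP matches, and Serpina3g alone had a STAT and an NF-kB match. No match of one motif overlapped a match of another. A match is a run of letters, not a measured binding site, and the pair that rose did not share one.

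Libraries held 15095357 to 24242139 counts. On the first principal component, with 72.7% of the variance, the Control libraries lay at -75.3 to -72.1 and the plasmid libraries at 33.4 to 40.7. The library labelled SIRT5F101L replicate 1 stood apart from its group on the second component (5.66% of the variance), at 20.3 against -23.5 to -17.0 for the other 3. It lay beside the WT libraries there (-1.07 to 20.1), and on the first component it was also nearer to WT (33.4 against 34.3 to 37.3) than to its own group (40.0 to 40.7). Sirt5 itself had 9 to 16 counts in Control, 1 to 9 in WT and 9 to 19 in SIRT5F101L libraries, with no call in any comparison, although none of its exon bases lies inside another gene. The Sirt5 counts therefore carry no sign of either plasmid, and every direction below rests on the treatment labels. Whether a plasmid transcript could be counted under the mouse ID is not given. The summed level of 13 chondrocyte markers was 9283 to 11637 CPM (counts scaled to library size by the trimmed mean of M-values, TMM) in Control, 2843 to 2957 in WT and 2313 to 2558 in SIRT5F101L libraries. Of these markers 11 were lower in each plasmid group, while Hapln1 (82.1, 97.7 and 93.0 CPM) was higher in both and Acan (133, 184 and 143 CPM) was higher in WT and not called in SIRT5F101L. The 8 fibroblast markers summed to 30301 to 36185, 10923 to 12157 and 10773 to 11919 CPM, a sum carried by the collagens Col1a1, Col1a2 and Col3a1. Of these 8, 6 were called lower and 2 higher in each plasmid group, the 2 being Dcn (414, 1124 and 1303 CPM) and Pdgfra (199.9, 262 and 306 CPM). The 13 macrophage or leukocyte markers summed to 195 to 230 CPM in Control, 94.8 to 108 in WT and 92.2 to 122 in SIRT5F101L libraries, and Itgam, one of them, was listed at 0. The 7 endothelial markers summed to 5.22 to 7.10, 41.6 to 48.4 and 43.2 to 48.2 CPM, a rise carried by Flt4 (2.13, 41.7 and 41.6 CPM), the 1 of 5 tested that was called. The 7 osteoblast markers summed to 63.8 to 73.7, 40.9 to 52.6 and 39.4 to 61.6 CPM, and the 7 muscle or adipocyte markers stayed at or under 3.78 CPM. The part of these markers in the results below was not tested. In RNA from whole cultures, fewer cells of a type and less RNA per cell cannot be told apart.

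Of the 9 members, 7 had counts and 6 passed the filter on low counts. Against Control, 5 of the 6 tested members were called in WT libraries, 2 higher and 3 lower. In SIRT5F101L libraries all 6 tested members were called, 3 higher and 3 lower. These calls, at a Benjamini-Hochberg adjusted p under 0.05 in edgeR's quasi-likelihood test, stand against a background in which 56.8% of the 14253 tested genes were called for WT and 60.7% for SIRT5F101L. By direction, 28.7% of all tested genes were higher and 28.1% lower in WT, and 30.0% were higher and 30.7% lower in SIRT5F101L. The median log2 fold change of the 6 tested members was -0.14 in WT and -0.09 in SIRT5F101L against Control, beside -0.01 and -0.02 over all genes. The members thus moved in both directions, Reck and Serpinf1 down and Serpina3n and Serpinb2 up by the largest amounts. Both comparisons share the 4 Control libraries, so their values are given side by side.

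**Figure D1:**
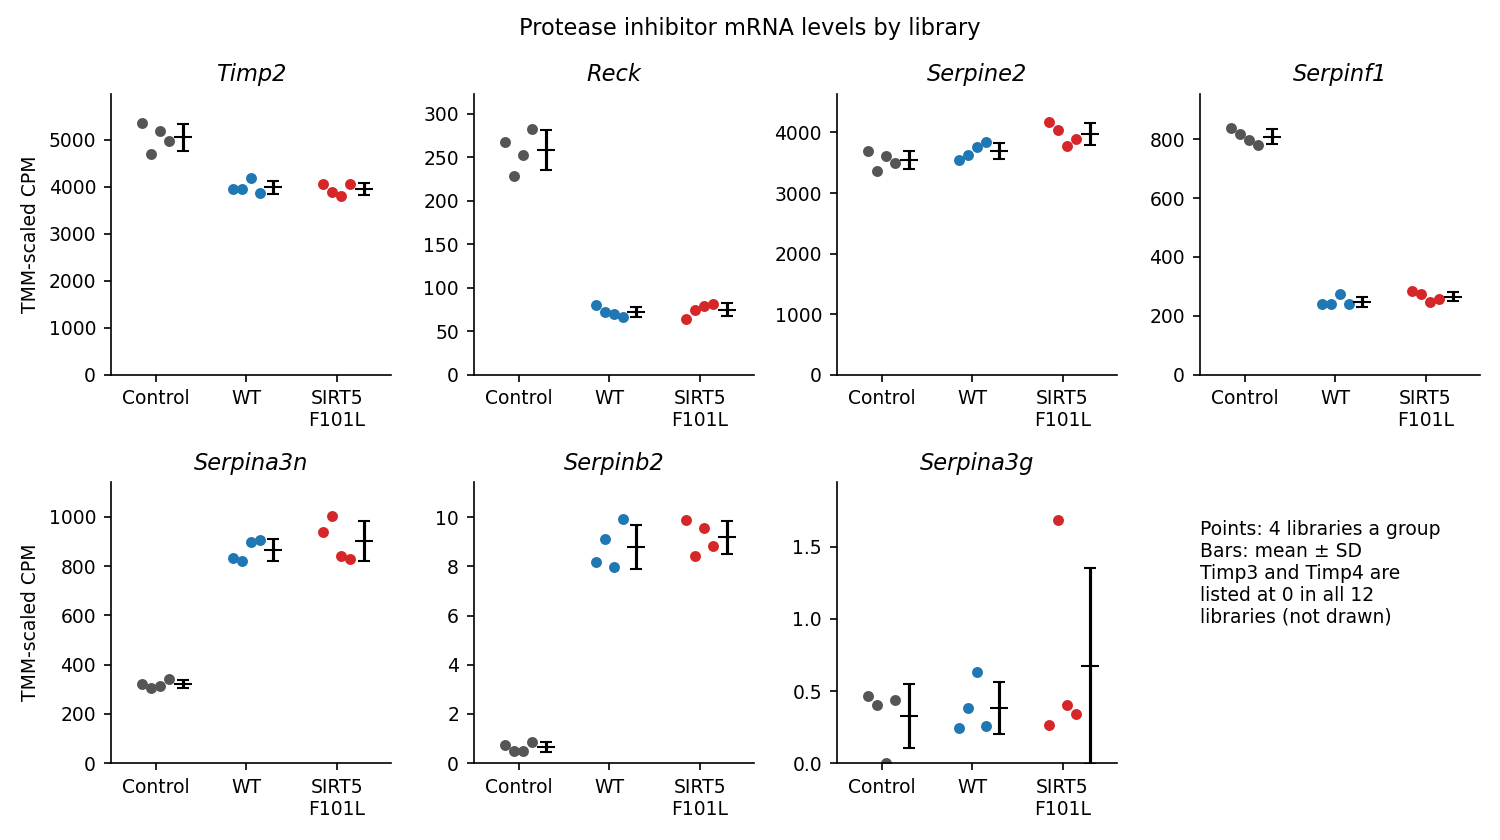
TMM-scaled CPM (y axis, from 0) of the 7 members with counts in the Control, WT and SIRT5F101L libraries (x axis), with 1 point per library and bars for the mean ± SD of 4 libraries. Timp2, Reck and Serpinf1 points of both plasmid groups lie below every Control point, those of Serpina3n and Serpinb2 lie above, and Serpina3g stays under 2 CPM in all 12 libraries.

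Timp2 (ENSMUSG00000017466, chromosome 11), which inhibits most metalloproteinases and also takes part in the activation of the MMP2 precursor by MMP14, was the most abundant member by count in Control and WT libraries, while in SIRT5F101L libraries its mean lay just under that of Serpine2. Its level was 5361, 4697, 5175 and 4969 CPM in Control replicates 1 to 4, 3942, 3945, 4178 and 3873 CPM in WT, and 4067, 3890, 3808 and 4061 CPM in SIRT5F101L libraries. Every plasmid library lay below every Control library, and the 2 plasmid groups overlapped. Means were 5051 ± 285, 3985 ± 133 and 3956 ± 129 CPM (SD, n = 4). Timp2 was 1.27-fold lower in WT (log2 -0.34, SE 0.06, adjusted p = 5.91e-05) and 1.28-fold lower in SIRT5F101L (log2 -0.35, SE 0.06, adjusted p = 3.85e-05) than in Control.

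Reck (ENSMUSG00000028476, chromosome 4), the glycosylphosphatidylinositol-anchored inhibitor of MMP14, MMP2 and MMP9, fell the most of the 6 tested members. Control libraries had 268, 229, 253 and 283 CPM, WT libraries 80.4, 72.3, 70.1 and 66.5 CPM, and SIRT5F101L libraries 63.8, 74.8, 79.4 and 81.2 CPM. The lowest Control library was far above the highest plasmid library, and the range of the WT libraries lay within that of the SIRT5F101L libraries. Means were 258 ± 23.0, 72.3 ± 5.90 and 74.8 ± 7.80 CPM (SD, n = 4). The fall was 3.57-fold in WT (log2 -1.83, SE 0.08, adjusted p = 1.68e-13) and 3.45-fold in SIRT5F101L (log2 -1.78, SE 0.08, adjusted p = 2.39e-13). Reck's promoter, printed above, is the only one of the 4 shown with a GC box match.

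Timp3 (ENSMUSG00000020044, chromosome 10), the matrix-bound TIMP that also inhibits ADAM17 and the aggrecanases, and Timp4 (ENSMUSG00000030317, chromosome 6) were listed at 0 in all 12 libraries. In the GENCODE M21 annotation 100% of the exon bases of both genes lie inside a synapsin gene on the opposite strand, Timp3 inside Syn3 and Timp4 inside Syn2. The same placement gave 0 counts almost everywhere: of 657 autosomal protein-coding genes whose exons all lie inside a gene on the opposite strand alone, 647 (98.5%) were listed at 0. Of 13430 such genes with exons outside every other gene's span, 2389 (17.8%) were listed at 0. For genes wholly inside another gene on either strand the share was 1115 of 1232 (90.5%). The 0 of Timp3 and Timp4 can therefore not be read as absence of their mRNA. Syn3, around Timp3, had 9.54 ± 1.88 CPM in Control, 7.82 ± 1.47 in WT and 7.65 ± 1.89 in SIRT5F101L libraries (SD, n = 4) and was not called, while Syn2 had 46 counts over all 12 libraries. Of the longest Timp3 transcript, 36.7% matches a Syn3 transcript in a BLAST search of both strands. Because these genes lie on opposite strands, the match need not be in the same reading direction. Timp1 (ENSMUSG00000001131) is on the X chromosome, where all 2414 IDs were listed at 0, as were all 1547 Y-linked and 37 mitochondrial IDs. It was therefore not analysed here, and Timp2 was the only one of the 4 TIMPs with a measured level.

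**Figure D2:**
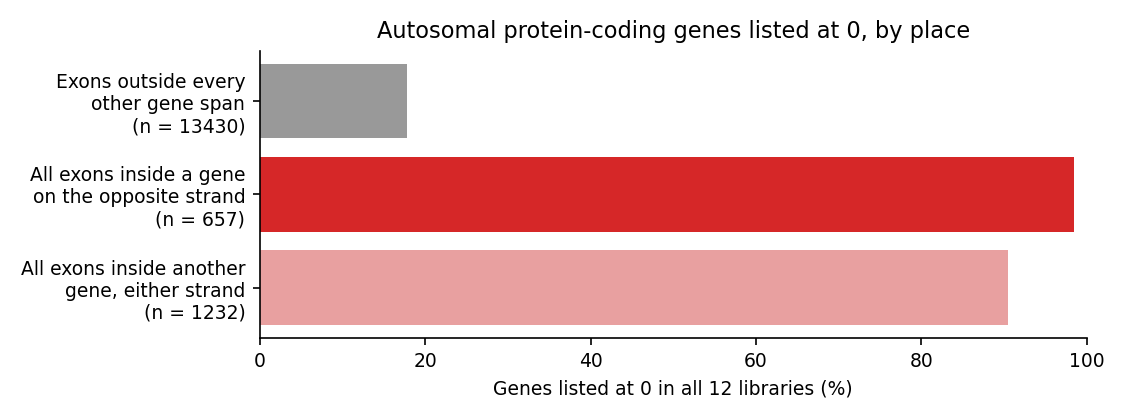
Percentage of autosomal protein-coding genes listed at 0 in all 12 libraries (x axis, 0 to 100%) for 3 classes of gene placement (y axis, n in brackets). The bars stand at 17.8% for genes outside every other gene, 98.5% for genes wholly inside an opposite-strand gene, the class of Timp3 and Timp4, and 90.5% for genes inside another gene on either strand.

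Serpinb2 (ENSMUSG00000062345, chromosome 1), plasminogen activator inhibitor type 2, a largely intracellular serpin that can inhibit urokinase, had the largest fold change of the members. Control libraries held 13, 10, 9 and 16 counts, WT libraries 166, 142, 138 and 193, and SIRT5F101L libraries 185, 130, 239 and 156. Every plasmid library held more than every Control library, all of them above the floor of 3 counts. The levels were 0.653 ± 0.192, 8.79 ± 0.898 and 9.18 ± 0.663 CPM (SD, n = 4), so by mean Serpinb2 stayed the second lowest of the 7 members with counts, and in Control its range overlapped that of Serpina3g. It was 13.4-fold higher in WT (log2 3.75, SE 0.19, adjusted p = 7.85e-13) and 14.0-fold higher in SIRT5F101L (log2 3.81, SE 0.19, adjusted p = 5.17e-13). Of its exon bases, 12.4% lie inside the span of the same-strand neighbour Serpinb10, which was counted at 0.423, 1.74 and 1.79 CPM and was also called higher (log2 2.03, adjusted p = 0.00027 in WT, and log2 2.06, adjusted p = 0.000202 in SIRT5F101L).

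Serpina3n (ENSMUSG00000021091, chromosome 12), a secreted serpin of the mouse antichymotrypsin cluster known as an acute-phase protein and an inhibitor of leukocyte proteases, was the more abundant of the 2 clearly raised members. Control libraries had 323, 303, 314 and 340 CPM, WT libraries 831, 819, 900 and 906 CPM, and SIRT5F101L libraries 937, 1003, 840.3 and 828 CPM. Both plasmid groups lay above every Control library and overlapped each other. Means were 320 ± 15.6, 864 ± 45.2 and 902 ± 82.9 CPM (SD, n = 4). The rise was 2.70-fold in WT (log2 1.43, SE 0.07, adjusted p = 4.41e-13) and 2.82-fold in SIRT5F101L (log2 1.49, SE 0.07, adjusted p = 2.15e-13). BLAST found no near copy (95% identity or more) of its longest transcript in another gene.

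Serpina3g (ENSMUSG00000041481, chromosome 12), an intracellular serpin of the same cluster that inhibits cathepsins, was at the edge of detection. It had 8, 8, 0 and 8 counts in Control, 5, 6, 11 and 5 in WT and 5, 26, 10 and 6 in SIRT5F101L libraries. The groups overlapped, and 1 SIRT5F101L library, replicate 2, held more counts than any other. Means were 0.327 ± 0.219, 0.381 ± 0.181 and 0.674 ± 0.678 CPM (SD, n = 4), below the filter on low counts. Fitted without that filter, the log2 fold changes were 0.21 (SE 0.61, adjusted p = 0.861) in WT and 0.98 (SE 0.58, adjusted p = 0.198) in SIRT5F101L against Control. Of its longest transcript, 22.8% has a copy of at least 95% identity in Serpina3i, so reads could be split between them. A difference was not detectable at this depth.

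Serpine2 (ENSMUSG00000026249, chromosome 1), protease nexin 1, which inhibits thrombin, urokinase and trypsin-like proteases on the matrix, was of similar abundance to Timp2 by count. Against Control it moved least of the 6 tested members. Control libraries had 3702, 3370, 3615 and 3499 CPM, WT libraries 3552, 3626, 3762 and 3842 CPM, and SIRT5F101L libraries 4181, 4043, 3772 and 3899 CPM. WT overlapped Control, whereas the lowest SIRT5F101L library lay just above the highest Control library. Means were 3546 ± 144, 3695 ± 131 and 3973 ± 177 CPM (SD, n = 4). The log2 fold change was 0.06 (SE 0.06, adjusted p = 0.404) in WT, not called, and 0.16 (SE 0.06, adjusted p = 0.0209) in SIRT5F101L, called higher. The second call was lost with upper-quartile scaling (0.12, adjusted p = 0.0759) and with a gene-length offset (0.13, adjusted p = 0.0667), in a range of 0.00191 to 0.0759 over 17 alternatives. SIRT5F101L and WT were not shown to differ in Serpine2 (log2 0.10, 95% interval -0.02 to 0.23, adjusted p = 0.472).

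Serpinf1 (ENSMUSG00000000753, chromosome 11), pigment epithelium-derived factor, a secreted serpin that inhibits no protease and is known for blocking the growth of blood vessels, fell in both plasmid groups. Control libraries had 838, 817, 798 and 780.3 CPM, WT libraries 239, 239, 273 and 241 CPM, and SIRT5F101L libraries 283, 274, 246 and 258 CPM. No plasmid library reached 300 CPM, and the plasmid groups overlapped. Means were 808 ± 24.7, 248 ± 16.5 and 265 ± 16.4 CPM (SD, n = 4). The fall was 3.26-fold in WT (log2 -1.71, SE 0.06, adjusted p = 5.78e-15) and 3.05-fold in SIRT5F101L (log2 -1.61, SE 0.06, adjusted p = 1.43e-14). Its lipase receptor Pnpla2, one of the listed receptors, rose from 26.4 ± 2.51 CPM in Control to 45.2 ± 5.64 in WT and 44.3 ± 2.05 in SIRT5F101L libraries (SD, n = 4; log2 0.77, adjusted p = 3.34e-07, and 0.74, adjusted p = 5.34e-07).

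Ranges of the 4 libraries of a plasmid group and of Control did not overlap for 5 of the 6 tested members in WT and for all 6 in SIRT5F101L, beside 53.5% and 51.3% of all tested genes. Between the plasmids the ranges of all 6 overlapped, beside 4.02% of genes that did not overlap.

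**Figure D3:**
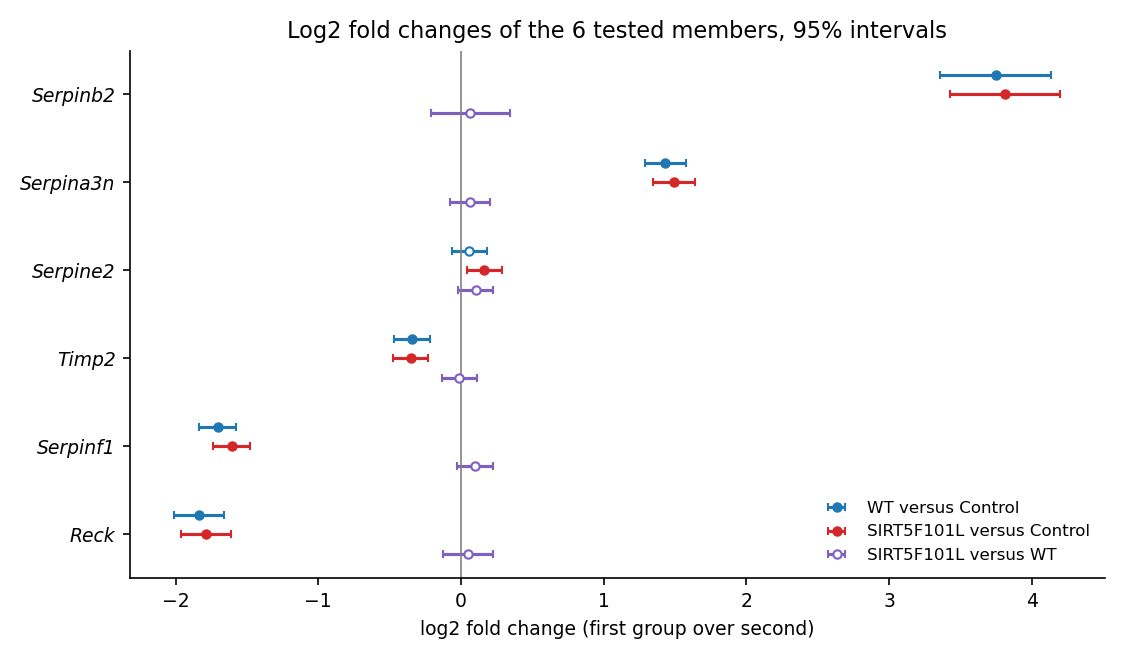
Log2 fold change (x axis) of the 6 tested members (y axis) with 95% intervals, in WT against Control (blue), SIRT5F101L against Control (red) and SIRT5F101L against WT (purple). Filled points have an adjusted p under 0.05. Serpinb2 lies at 3.75 and 3.81, Reck at -1.83 and -1.78, and all 6 purple intervals include 0.

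The direct comparison of the 2 plasmids asks whether the mutant changed the inhibitors differently from the wild-type plasmid. No member was called between SIRT5F101L and WT, where 0.0421% of all tested genes (6 of 14253) were, 4 higher (0.0281%) and 2 lower (0.0140%). At an unadjusted p under 0.05 there were 1701 such genes, and DESeq2 called 44. The log2 difference was -0.01 for Timp2 (95% interval -0.13 to 0.11, adjusted p = 0.961) and 0.05 for Reck (-0.12 to 0.22, adjusted p = 0.836). For the serpins it was 0.06 for Serpina3n (-0.08 to 0.20, adjusted p = 0.720), 0.07 for Serpinb2 (-0.21 to 0.34, adjusted p = 0.868) and 0.10 for Serpinf1 (-0.03 to 0.23, adjusted p = 0.516). These intervals bound a difference without showing that the plasmids acted alike. Without SIRT5F101L replicate 1, 2212 genes (15.2%) were called, and again no member. Reck then differed by 0.12 (-0.02 to 0.26, adjusted p = 0.276), Serpine2 by 0.08 (adjusted p = 0.406), Serpinf1 by 0.07 (adjusted p = 0.510), Serpina3n by 0.04 (adjusted p = 0.713), Serpinb2 by 0.03 (adjusted p = 0.921) and Timp2 by -0.02 (adjusted p = 0.860). Against Control, all 6 members stayed called without that library, Serpine2 with the smallest margin (0.14, adjusted p = 0.0411).

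Levels of different genes were compared as CPM per kilobase of exon. In Control the order was Timp2 (1296), Serpine2 (428), Serpinf1 (343), Serpina3n (155), Reck (54.0), Serpinb2 (0.278) and Serpina3g (0.155), where the last pair overlapped. In WT it was Timp2 (1023), Serpine2 (446), Serpina3n (419), Serpinf1 (105), Reck (15.1), Serpinb2 (3.74) and Serpina3g (0.181). In SIRT5F101L libraries the same order was found, with Timp2 at 1016, Serpine2 at 479, Serpina3n at 437, Serpinf1 at 113, Reck at 15.7, Serpinb2 at 3.91 and Serpina3g at 0.320. The ranges of Serpine2 and Serpina3n overlapped in both plasmid groups, although Serpine2 was the higher within each of the 8 plasmid libraries. Serpinf1 stood above Serpina3n in Control and below it in both plasmid groups. The lead of Timp2 depended on the length used: per kilobase of the longest transcript, Timp2 was at 1362, 1074 and 1067, and Serpine2 at 1045, 1089 and 1171 in Control, WT and SIRT5F101L. The closeness of Serpine2 and Serpina3n depended on it too, since Serpina3n stayed at 155, 419 and 437 on that length.

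Because an inhibitor acts against its protease, members were also set against protease mRNAs as ratios of CPM per kilobase within each library, as a description of mRNA and not of protein or activity. Timp2 mRNA was 144 times that of Mmp3, the stromelysin that cuts proteoglycans, in Control (range 126 to 154). The same ratio was 1.21 (1.02 to 1.29) in WT and 0.977 (0.892 to 1.0799) in SIRT5F101L libraries. Against Mmp13, the main collagenase of cartilage, Timp2 stood at 40.5 (33.8 to 46.2), 5.39 (4.90 to 5.86) and 4.46 (4.07 to 4.93). Most of the shift lay in the proteases. Mmp3 went from 16.3 ± 1.55 CPM in Control to 1533 ± 146 in WT and 1880 ± 163 in SIRT5F101L, and Mmp13 from 86.3 ± 8.64 to 508 ± 25.04 and 611 ± 38.5 CPM (SD, n = 4). Against Mmp2 the Timp2 ratio was 31.6 (31.2 to 32.3), 56.2 (53.1 to 57.5) and 48.1 (45.6 to 52.8), since Mmp2 mRNA fell more than Timp2.

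Reck stood at 0.276 (0.264 to 0.295) of Mmp14, the membrane-type metalloproteinase it inhibits, in Control, at 0.146 (0.136 to 0.166) in WT and at 0.161 (0.124 to 0.181) in SIRT5F101L libraries. Both genes fell, Reck by more. Per kilobase of the longest transcript these means were 0.158, 0.0836 and 0.0920, with the same fall between groups. Serpine2 over Plau, the urokinase gene, was 17.3 (16.8 to 17.8), 4.77 (4.53 to 5.01) and 5.19 (4.996 to 5.34), with Serpine2 nearly level and Plau rising. With the longest transcripts these means were 41.8, 11.5 and 12.6. In all 5 ratios the Control and plasmid libraries did not overlap. That adds little to the single genes, since all 5 proteases were themselves called in both comparisons with Control. Among all tested genes, 53.5% in WT and 51.3% in SIRT5F101L did not overlap with Control.

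**Figure D4:**
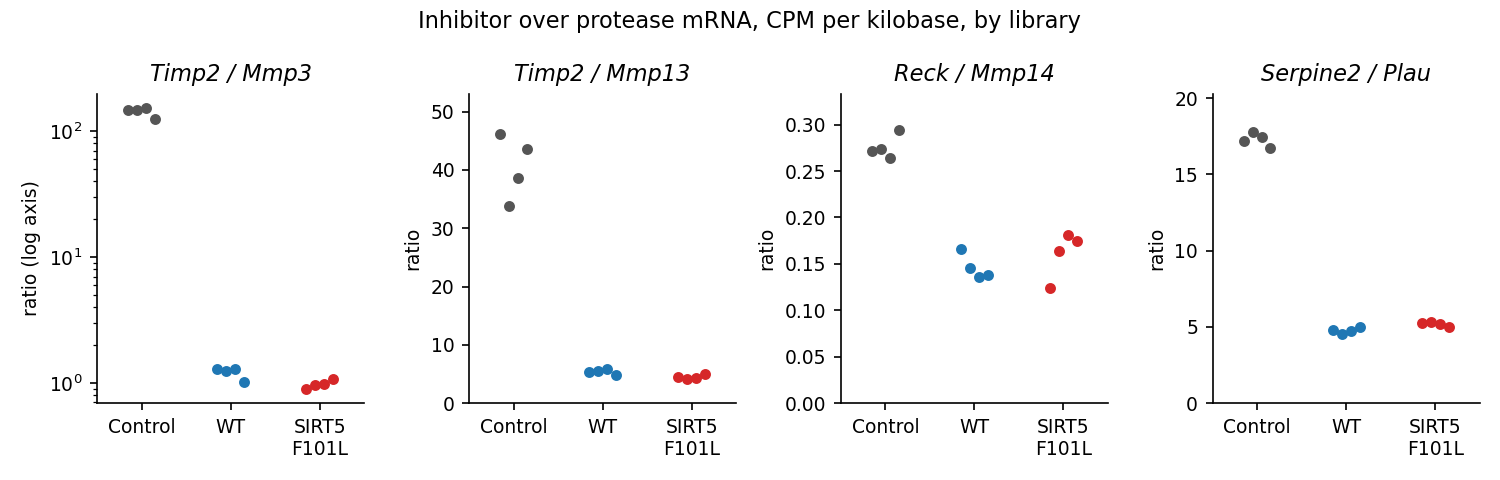
Ratio of inhibitor to protease mRNA, both as CPM per kilobase of exon, in each library (1 point each) by group. The Timp2 over Mmp3 panel has a log axis and the other 3 start at 0. Control points lie above all plasmid points in the 4 panels, as for Serpine2 over Plau, at 16.8 to 17.8 against 4.53 to 5.34.

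The members were next set beside 5 lists of related genes. The counts below stand against all tested genes, of which 28.7% were called higher and 28.1% lower in WT. In SIRT5F101L these shares were 30.0% and 30.7%. No list was tested as a set. Among 58 other serpins, 25 were tested and 12 were called higher, 6 lower and 7 not, in each of the 2 comparisons with Control. Their median log2 fold change was 0.48 in WT and 0.68 in SIRT5F101L. The summed level of the list nevertheless fell, from 3611 to 3826 CPM in Control libraries to 2683 to 2903 in WT and 2429 to 2835 in SIRT5F101L. Called higher in both were, among others, the intracellular furin inhibitor Serpinb8 (log2 0.48 and 0.43 in WT and SIRT5F101L) and the complement C1 inhibitor Serping1 (log2 0.48 and 0.68). Of those called lower in both, the one with the highest mean CPM was Serpinh1, the collagen chaperone HSP47, which like Serpinf1 inhibits no protease (2332, 807 and 689 CPM in Control, WT and SIRT5F101L, log2 -1.53 and -1.76). Serpinb1a and Serpinb9, which inhibit leukocyte elastase and granzyme B, were next by level (log2 -2.59 and -2.58, and -0.61 and -0.54). Serpinf1 and Serpinh1 both fell, as did the inhibitory Serpinb1a and Serpinb9, and serpins that inhibit no protease were not tested as a set.

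Of 22 other extracellular protease inhibitors, 15 were tested. In WT 8 were called higher, 4 lower and 3 not, with a median of 0.35. In SIRT5F101L 8 were higher, 3 lower and 4 not, with a median of 0.47. Higher were Col6a3, a collagen chain with a Kunitz domain (log2 0.35 and 0.24), the hyaluronan-binding Itih5 (log2 2.01 and 2.11) and the leukocyte protease inhibitor Slpi (log2 2.33 and 2.195). Lower were App and Aplp2, whose proteins can carry a Kunitz domain (log2 -1.66 and -1.65, and -0.41 and -0.32), and Wfdc1 (log2 -1.59 and -1.83).

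Of 38 metalloproteinases, the targets of TIMPs and RECK, 30 were tested, and 10 were called higher, 12 lower and 8 not in each comparison with Control. Their medians were 0.06 in WT and -0.01 in SIRT5F101L, near that of all genes. Mmp3 (log2 6.55 and 6.85), Mmp13 (2.56 and 2.82) and the sheddase Adam9 (0.42 and 0.44) rose. Mmp14 (-0.92 and -0.996), the aggrecanase Adamts5 (-0.45 and -0.27) and Mmp2 (-1.17 and -0.96), the last a classical partner of Timp2 and Mmp14, fell.

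Of 34 serine proteases and plasminogen-system genes, 22 were tested, and 10 were called higher, 8 lower and 4 not in each comparison, with medians of 0.12 and 0.15. Plau rose from 58.6 ± 3.17 CPM in Control to 221 ± 7.06 in WT and 219 ± 9.01 in SIRT5F101L (SD, n = 4; log2 1.92 and 1.90). The complement-pathway protease gene Masp1 (log2 1.75 and 1.80) and the proprotein convertase Furin (0.84 and 0.71) rose as well. The plasminogen-binding S100a10 (-0.37 and -0.61), Prss23 (-2.39 and -2.47) and the complement protease gene C1ra (-1.88 and -1.91) fell.

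Of 12 clearance receptors and RECK partners, 10 were tested, with 6 called higher, 1 lower and 3 not in each comparison and medians of 0.68 and 0.64. Lrp1, the receptor that takes up serpin and protease complexes (log2 0.66 and 0.80), and the heparan sulfate carrier Gpc1 (1.19 and 1.20) rose. The 1 gene called lower was Lrp2 in WT and Rpsa in SIRT5F101L, both named after their values were seen. Adgra2, RECK's partner, was not called, at 8.50 ± 1.23, 6.96 ± 1.58 and 7.37 ± 0.574 CPM (SD, n = 4; adjusted p = 0.131 and 0.268). Between SIRT5F101L and WT no gene of the 5 lists was called, while 1 of the 13 chondrocyte markers was called lower in SIRT5F101L. Of the 162 list genes with an ID, 20 were listed at 0, and 5 of these lie wholly inside another gene, 3 of them inside one on the opposite strand, the placement of Timp3 and Timp4.

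**Figure D5:**
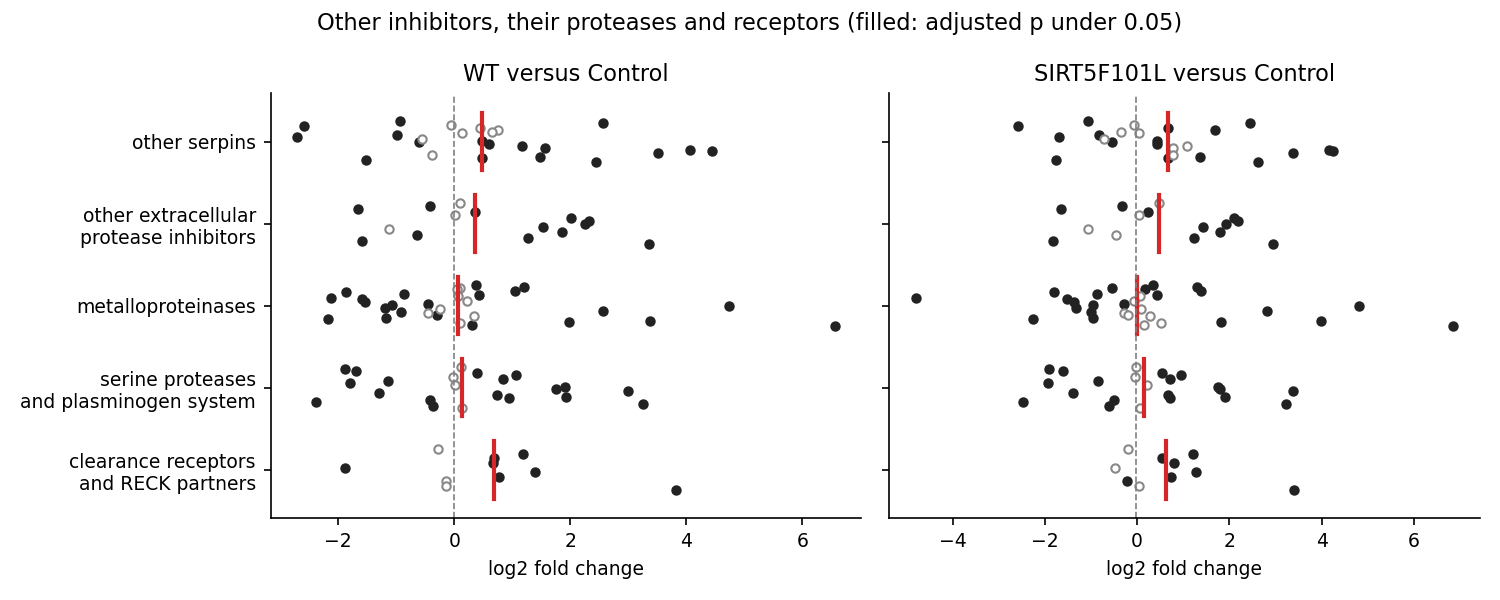
Log2 fold change (x axis) of the tested genes of 5 lists (y axis) in WT (left) and SIRT5F101L (right) against Control. Filled points have an adjusted p under 0.05, red bars are list medians and the dashed line is the median of all genes. The metalloproteinase median lies at 0.06 and -0.01, that of the receptors at 0.68 and 0.64, and every list has called genes on both sides of 0.

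The gene whose log2 CPM followed each tested member most closely over the 12 libraries was sought among 9783 genes averaging 5 CPM or more. Reck was followed by Igsf10 (Pearson r = 0.996) and Tgfb2 (r = 0.996), Timp2 by Aebp1 (r = 0.990) and Naglu (r = 0.988), and Serpinf1 by Ccn3 (r = 0.997) and Dkk3 (r = 0.996). Serpina3n was followed by Gja1 (r = 0.997) and Rassf3 (r = 0.996), and Serpinb2 by Lcn2 (r = 0.998) and Tslp (r = 0.996). Serpine2, which moved least against Control, had Xaf1 (r = 0.890) and Pttg1ip (r = 0.869) nearest. These values describe libraries that fall into Control and plasmid clusters, so genes that split the same way score high: 324 genes passed an r of 0.95 with Timp2, 634 with Reck, 765 with Serpinf1, 1015 with Serpina3n, 1019 with Serpinb2 and none with Serpine2. After group means were removed, r ranged from 0.476 (Serpinf1 and Dkk3) to 0.904 (Timp2 and Aebp1), with 0.900 for Serpine2 and Pttg1ip. The pairs were picked for a high r in the same libraries, so these values are partly selected.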

How the data were processed

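The authors deposited 1 table per library, which holds raw whole-number counts by Ensembl gene ID with no normalization. The submitters' processing notes name FastQC 0.11.9, HISAT2 2.2.1, HTSeq 2.0.2, DESeq2 1.38.3 and the builds GRCm39 and mm39, with no role or parameter. How strand and overlapping genes were counted is not given in the sources used here. Symbols were found for 52029 of 57010 IDs, and the 4981 others (0.377% to 0.821% of counts) stayed in the totals. Gene lengths and placement came from GENCODE M21 (GRCm38), another build, so no gene coordinates are printed from it. Promoters came from RefSeq (GRCm38.p6), in which all 9 members were matched. Near copies were sought with BLAST 2.17.0.

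Counts were fitted with edgeR 4.0.16 (R 4.3.3, limma 3.58.1): TMM scaling, the default expression filter by group, a quasi-likelihood fit of 12 libraries with 3 group means, and 2-sided tests with Benjamini-Hochberg adjustment over all 14253 genes at 0.05. The biological coefficient of variation was 9.18%, with 9 residual degrees of freedom. DESeq2 1.42.0, other scalings, filters and priors, a length offset and leaving out each library were alternatives. The fit was tested on simulated data. Log2 CPM used a prior count of 2. A single count was worth 0.0413 to 0.0662 CPM before scaling, and floors cover counting error only. Between replicates of a group, the median squared difference in counts was 2.56 to 8.92 times that of sampling noise alone. Pairs with SIRT5F101L replicate 1 gave 8.19 to 8.92, and every other pair gave 5.80 or less. All 12 were kept as separate replicates. Replicate numbers follow accession order and equal the numbers that end the deposited tables' names. No label says that they pair libraries, and no block was used in the main model.

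The members and lists were chosen with earlier results of these data known. Named genes were the members, Timp1, Sirt5, per list the 3 highest-level genes called higher and the 3 called lower in both comparisons with Control, and the 2 genes most like each tested member. Of the genes this rule names, 2 are not reported here. Pnpla2, Adgra2, Serpinb10, Syn2, Syn3, Flt4, Itgam, Col1a1, Col1a2, Col3a1, Dcn, Pdgfra, Hapln1, Acan, Lrp2 and Rpsa were named beyond that rule.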

Additional observations from a re-analysis of the deposited data

Results flagged for a closer look

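In each group of 4 libraries the highest and lowest values were screened with Dixon's ratio against its 95% critical value. This covered 24 sets of 4 values, 21 for the 7 members with counts and 3 for total counts, of which chance flags about 1 in 20. Serpina3g stood at 0 CPM in Control replicate 3, with the other 3 Control libraries at 0.405 to 0.464 (ratio 0.873). Serpina3g stood at 1.69 CPM in SIRT5F101L replicate 2, with the others at 0.267 to 0.401 (ratio 0.906). Both rest on few counts, 0 and 26. Serpinf1 stood at 273 CPM in WT replicate 3, with the others at 239 to 241 (ratio 0.938), still far below the lowest Control library at 780.3.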

How the results depend on the processing

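Of 102 recomputed member values per comparison, all 102 kept their direction and call in WT against Control and 100 did in SIRT5F101L against Control, the other 2 being Serpine2 (0.12 with upper-quartile scaling, 0.13 with the length offset). In SIRT5F101L against WT no member was called under any alternative run, and Timp2, at -0.01, ranged from -0.0243 to 0.0121 when 1 library was left out, above 0 at 0.0121 without WT replicate 3 and at 0.00757 without SIRT5F101L replicate 3. The number of genes called between the plasmids moved most: 6 became 354 with no filter, 2 with a robust prior, 20 with the length offset, 2 with only the 8 libraries compared and 44 with DESeq2. Leaving out 1 library gave 0 to 2212, the latter without SIRT5F101L replicate 1 and 0 without any of the 7 others. The cause was not tested. Against Control, leaving out 1 library gave 7549 to 7824 genes for WT and 8030 to 9179 for SIRT5F101L. With the number ending the tables' names as a replicate block, an alternative chosen after seeing the data, 7715, 8305 and 0 genes were called in WT against Control, SIRT5F101L against Control and SIRT5F101L against WT, and 5, 6 and 0 members. Same-numbered libraries deviated from their group means with correlations of -0.214 to 0.105, over 0.1 in 1 of 12 pairs. Of the 12, 3 correlated best with their own number. With 4 libraries a group and no label on pairing, this check cannot settle whether same-numbered libraries were paired. Depth limits Serpina3g, at 0 to 26 counts, and Serpinb2 in Control, at 9 to 16 counts.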
